A study of Xenopus laevis with 12 samples.

Results

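Gonadotropin-releasing hormone II (GnRH-II) is encoded in Xenopus laevis by gnrh2.L, NCBI Gene number 108697134, which is 1 of the 37018 genes counted in 12 whole-brain RNA-seq libraries of tadpoles. Libraries formed 4 groups of 3, staged by Nieuwkoop and Faber (NF): wild-type controls at NF 45 and NF 47, and tadpoles with brain abnormalities caused by thioridazine at the same stages. Thioridazine is an antipsychotic of the phenothiazine class. Embryos were exposed to 90 µM of it from NF 14 to NF 26, the neurula and early tailbud period, and their brains were taken long after the drug was withdrawn. Controls and exposed embryos shared a temperature of 18 °C during that window and of 14 °C before and after it. The labels name no vehicle for the controls, and give neither the number of brains pooled nor the clutch behind each library.

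The gene was chosen because its level had already been seen to differ between these groups. Its levels in all 4 groups are therefore a description, each with the standard error (SE) of a fit and with no test. X. laevis is allotetraploid, and many of its genes have an .L and an .S copy. The RefSeq gene table used for names pairs no .S copy with gnrh2.L.

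GnRH peptides are decapeptides cut from longer precursors, and they act on receptors that couple through Gq to phospholipase C. GnRH-II is the form most alike across jawed vertebrates and is made mainly by neurons of the midbrain. GnRH-I neurons of the forebrain reach the pituitary and drive the release of gonadotropins. In whole brain, a difference in the number of such neurons and a difference in RNA per neuron cannot be told apart.

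Libraries held 12843954 to 18164871 counted reads, and 26570 genes passed a filter on low counts. Pan-neuronal genes such as snap25.L were present in all 12 libraries, with a summed level of 6508 to 9724 counts scaled to an equal library total (CPM) over 31 genes. A few libraries, most of them of NF 45, stood apart in genes of other tissues. Skin genes summed to 283 and 234 CPM in replicate 2 of the NF 45 controls and of the NF 45 exposed group, against 2185 to 3538 CPM in the other NF 45 libraries. In the same 2 libraries muscle genes summed to 4148 and 5691 CPM, against 1392 to 2275 CPM in the other NF 45 libraries. Genes of liver, pancreas and gut summed to 1766 CPM in NF 45 control replicate 3, against 603 to 857 CPM in the other libraries. The rod photoreceptor gene rho.L lay at 161 CPM in that library and at 113 CPM in NF 45 exposed replicate 1. In NF 47 exposed replicate 3 it had 18.5 CPM from 272 reads, against 4 to 82 reads in the other NF 47 libraries. All other libraries lay below 18.5 CPM.

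Transcripts of gnrh2.L were about as abundant in NF 45 exposed brains as in controls 2 stages older, and least abundant in NF 45 controls. The NF 45 controls had 144, 142 and 154 reads of the gene, which is 10.4, 8.84 and 11.8 CPM after scaling of libraries by TMM. The NF 45 exposed brains had 270, 418 and 396 reads, or 20.4, 23.3 and 23.4 CPM. Every exposed library thus lay above every control, and counting error alone gave a 95% interval of 10.0 to 13.9 CPM for the highest control and of 18.1 to 23.0 CPM for the lowest exposed library. Group means were 10.4 ± 1.5 CPM and 22.4 ± 1.67 CPM (SD, n = 3), a log2 fold change of 1.11 ± 0.198 (SE), or 2.16-fold. Of all tested genes, 2.44% had NF 45 groups that did not overlap in this direction. As the gene was chosen on this contrast, nothing is read from that share.

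At NF 47 the controls had 17.1, 24.3 and 20.0 CPM and the exposed brains 27, 22.9 and 37.6 CPM. These groups overlapped, since exposed replicate 2 lay below control replicate 2. Means were 20.5 ± 3.65 CPM and 29.1 ± 7.6 CPM (SD, n = 3), a log2 fold change of 0.51 ± 0.193 (SE), or 1.42-fold. Exposed replicate 3 was the highest of the 12 libraries, and without it the log2 fold change was 0.28. Genes of retina and pigment cells summed to 514 CPM in that library, the most at NF 47. Their part in this difference was not tested. Subtracting the NF 45 from the NF 47 log2 fold change gave -0.60 ± 0.276 (SE).

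**Figure D1:**
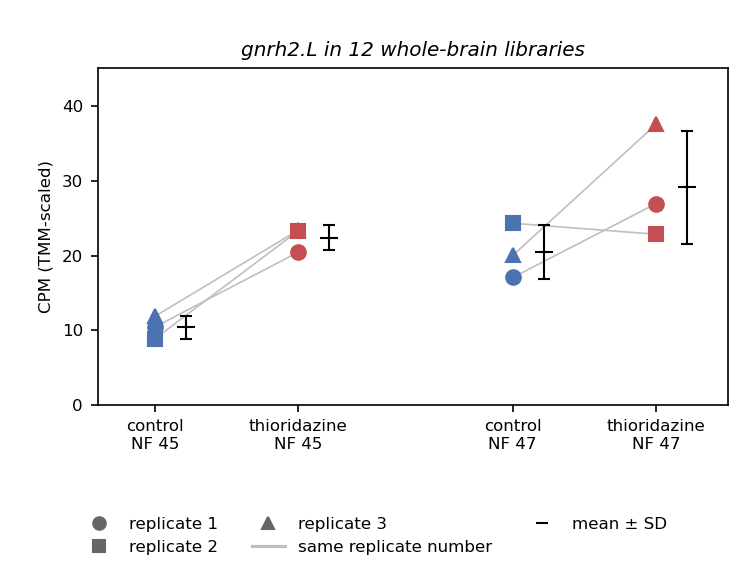
Level of gnrh2.L (y axis, TMM-scaled CPM, from 0) in each of 12 libraries by group; colours separate control and thioridazine, symbols give the replicate number, grey lines join same-numbered libraries of a stage, and bars are mean ± SD of 3. The NF 45 controls lie at 8.84 to 11.8 CPM, below the other 9 libraries, which span 17.1 to 37.6 CPM.

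Between the stages, gnrh2.L was higher in NF 47 than in NF 45 controls by 0.98 ± 0.198 on the log2 scale (SE), or 1.98-fold, and these groups did not overlap. Among all tested genes 9.87% had control groups that did not overlap with NF 47 higher. In exposed brains the difference between the stages was 0.38 ± 0.193 (SE), the groups overlapped, and without NF 47 exposed replicate 3 it was 0.18. In order of mean level came NF 45 controls, NF 47 controls, NF 45 exposed and NF 47 exposed brains. Only the first step of this order was wider than the spread of the libraries. The NF 45 exposed range, 20.4 to 23.4 CPM, lay inside the NF 47 control range of 17.1 to 24.3 CPM.

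Libraries with the same replicate number in a stage deviated together across genes and were read as pairs. The ratio of exposed to control gnrh2.L was 1.96, 2.64 and 1.97 in NF 45 pairs 1, 2 and 3, and 1.58, 0.940 and 1.88 in the NF 47 pairs. The exposed library was higher in 5 of 6 pairs.

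Relative to pan-neuronal transcripts the order of the groups was the same. Per 1000 CPM of the summed pan-neuronal genes, gnrh2.L had 1.43, 1.00 and 1.82 CPM in NF 45 controls and 2.89, 2.88 and 2.81 CPM in NF 45 exposed brains. In NF 47 controls it had 1.80, 2.68 and 2.15 CPM, and in NF 47 exposed brains 2.77, 2.81 and 4.18 CPM. On this scale both exposed groups lay above both control groups without overlap, but at NF 47 only narrowly, from 2.77 against up to 2.68 CPM. NF 47 exposed replicate 2, below control replicate 2 by TMM, had the lowest pan-neuronal sum of that stage, 8124 CPM. How many of all genes are apart on this scale was not counted. The gene was also chosen on these groups, so nothing is read from this separation. The control stages, apart by TMM, overlapped here, since NF 47 control replicate 1 lay below NF 45 control replicate 3. The difference between control stages was 0.66 on the log2 scale here, against 0.98 by TMM. This scaling was chosen after seeing the data.

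By size alone, the NF 45 fold change of gnrh2.L was number 148 from the highest of 26570 genes, and number 7 among the 9233 genes with a mean level within 2-fold of its own. At NF 47 these places were 902 and 74, and for the control stages 195 and 21. As the gene was chosen for its difference between these groups, nothing is read from these places. The biological coefficient of variation of gnrh2.L was 18.6%, against a median of 20.8% over all tested genes.

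The other ligand gene of the family, gnrh1.L, for GnRH-I, was barely detected. It had 0 to 4 reads per library and did not pass the filter, so it has no fold change.

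GnRH receptor genes, 4 in number after the filter, were not called in any contrast. A call is an adjusted p under 0.05 in edgeR's quasi-likelihood test over all genes. In this test 0 genes (0%) were called between exposed and control brains at NF 45 and 0 (0%) at NF 47. Of the 26570 tested genes 525 and 291 had an unadjusted p under 0.05. Both counts are below a share of 0.05, the share to be had if no gene differed, so nothing is read from them. DESeq2 called 9 genes (0.0339%) at NF 45 and 1 (0.00376%) at NF 47, and edgeR with same-numbered libraries as pairs called 6 (0.0226%, of which 5 were higher, 0.0188%) and 1 (0.00376%). With gnrh2.L left out, no receptor gene and no gene of any list described below was among those of either tool. Here and below, calls of list members leave out gnrh2.L, for which no test is given.

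For gnrhr2.L, NF 45 controls gave 2.17, 1.93 and 1.77 CPM and NF 45 exposed brains 1.82, 3.01 and 3.01 CPM. Exposed replicates 2 and 3 lay above the controls and replicate 1 among them, and the log2 fold change was 0.42 ± 0.281 (adjusted p of 1 in edgeR). At NF 47 it was -0.14 ± 0.279. Its copy gnrhr2.S was scarce, with 4 to 14 reads per library. At NF 47 the controls gave 0.298, 0.33 and 0.421 CPM and the exposed brains 0.896, 0.655 and 0.611 CPM, without overlap, as for 3.8% of all genes in this direction. This was a log2 fold change of 1.03 ± 0.468 (adjusted p of 1 in edgeR), and at NF 45 it was 0.24 ± 0.468. Reads of these copies may be divided between them in counting, so the level of each is uncertain.

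For gnrhr1-A, the NF 45 controls gave 1.59, 1.49 and 1.61 CPM and the exposed brains 1.97, 2.06 and 1.36 CPM, with a log2 fold change of 0.20 ± 0.382. Its lowest level, 0.814 CPM from 12 reads, was in NF 47 exposed replicate 3, the library with the most gnrh2.L. For gnrhr.L, the NF 45 controls gave 3.4, 2.8 and 2.31 CPM and the exposed brains 2.27, 2.01 and 4.31 CPM. Exposed replicate 3 was above the controls and replicates 1 and 2 below them. The log2 fold change of 0.02 ± 0.323 was -0.41 without exposed replicate 3, and it was also below 0 without control replicate 2 or 3.

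**Figure D2:**
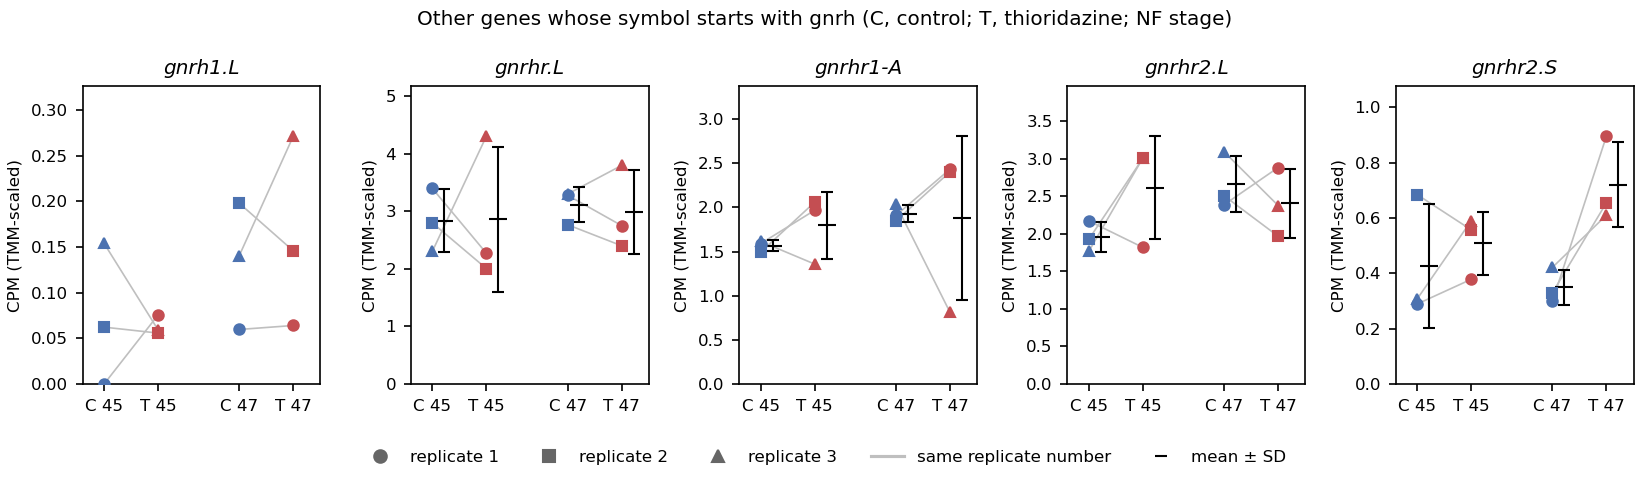
TMM-scaled CPM (y axes, each from 0) of the ligand gene gnrh1.L and 4 receptor genes in 12 libraries; symbols, colours and lines are as in the plot of gnrh2.L, and bars are mean ± SD of 3, left out for gnrh1.L. At NF 45 control and thioridazine libraries overlap in each receptor gene, and at NF 47 they are apart for gnrhr2.S.

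Genes that act below GnRH receptors (Gq, phospholipase C, protein kinase C, calcium signalling and immediate early genes) were spread evenly around 0. At NF 45, 18 of 37 tested members were higher in exposed brains, 0 were called, and the median log2 fold change was -0.0022, against -0.0036 for all genes. At NF 47, 16 were higher and 0 called, and the median was -0.0058. The smallest unadjusted p at NF 45 belonged to dusp1.L, a phosphatase of MAP kinases, with a log2 fold change of 0.22 ± 0.0976. It was higher in the exposed library of 6 of 6 pairs, as were 3.1% of all genes. Next came plcb3.L, a phospholipase C, with 0.28 ± 0.128, and atf3.S, a stress-induced transcription factor, with -0.48 ± 0.246.

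Pituitary gonadotrope genes were scarce at these stages. The luteinizing hormone subunit gene lhb.L had 0 to 3 reads per library, and the follicle-stimulating hormone subunit genes fshb.L and fshb.S 0 to 3 and 0 to 5. The subunit shared with thyrotropin, cga.L, had 60 to 296 reads. At NF 45, 11 of 16 tested genes of the list were lower in exposed brains, 0 were called, and the median was -0.30. At NF 47, 10 were lower, 0 were called, and the median was -0.16. The list also holds genes that are not particular to gonadotropes, so these counts are not read as a result about those cells. The pituitary transcription factor gene pou1f1.L had 7, 13 and 10 reads in NF 45 controls and 1, 9 and 2 in exposed brains, and a log2 fold change of -1.50 ± 0.699. The thyrotropin subunit gene tshb.S had -0.65 ± 0.37, and nr0b1.L, a nuclear receptor gene of the reproductive axis, -0.34 ± 0.223.

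In the RefSeq table gnrh2.L follows directly on a pair of other neuropeptide genes. The order is avp.L, the vasotocin-type antidiuretic hormone gene, oxt.L, the oxytocin-type hormone gene, gnrh2.L, ptpre.L, a receptor tyrosine phosphatase gene, and LOC108697133. Both hormone genes had higher mean levels in NF 45 exposed brains and neither was called. For oxt.L the NF 45 controls gave 19.6, 11.3 and 10.2 CPM and the exposed brains 32.2, 17.6 and 27 CPM. The exposed library was higher in each pair, but exposed replicate 2 lay below control replicate 1. The log2 fold change was 0.90 ± 0.289, with an unadjusted p of 0.00918 and an adjusted p of 1 in edgeR. With same-numbered libraries as pairs in edgeR, the adjusted p of oxt.L was 0.32.

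For avp.L the NF 45 controls gave 11.6, 7.9 and 7 CPM and the exposed brains 15.8, 10.3 and 15.2 CPM, again higher in each pair with groups that overlapped. Its log2 fold change was 0.64 ± 0.225 (adjusted p of 1 in edgeR). On the other side, the NF 45 levels of ptpre.L were 34.6, 35.3 and 30.7 CPM without and 28.7, 35.6 and 33.1 CPM with exposure. Its groups overlapped, and the log2 fold change was -0.05 ± 0.114. LOC108697133 had 0.498 to 2.77 CPM in NF 45 controls and 0.39 to 1 CPM in exposed brains. Its log2 fold change of -0.85 ± 0.638 became 0.32 without control replicate 3.

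The .S copies avp.S and oxt.S lie side by side in the table, followed by ptpra.S, with no gnrh2 gene listed there. For oxt.S the NF 45 controls gave 12.1, 8.4 and 7.54 CPM and the exposed brains 17.7, 12.8 and 24 CPM. For avp.S they gave 7.88, 6.16 and 7.46 CPM and 12.1, 9.58 and 12 CPM. In both genes every exposed library lay above every control, as for 2.44% of all genes. The log2 fold changes were 0.96 ± 0.257 and 0.65 ± 0.184, with an adjusted p of 1 each in edgeR and of 0.401 and 0.895 in DESeq2.

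At NF 47 the log2 fold change was 0.26 for oxt.L, 0.08 for avp.L, 0.04 for oxt.S and -0.21 for avp.S, and in each gene the groups overlapped. The values of oxt.S and avp.L changed sign when 1 library was left out. In mean level, oxt.L had 25.6 CPM in NF 45 exposed brains and 26.3 CPM in NF 47 controls, and avp.L 13.8 and 14.5 CPM. The difference of the fold changes between the stages was called for none of these genes. It was called for 0 of all genes (0%) in edgeR and for 0 in DESeq2. In edgeR 91 genes had an unadjusted p under 0.05, also below a share of 0.05 of the tested genes.

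**Figure D3:**
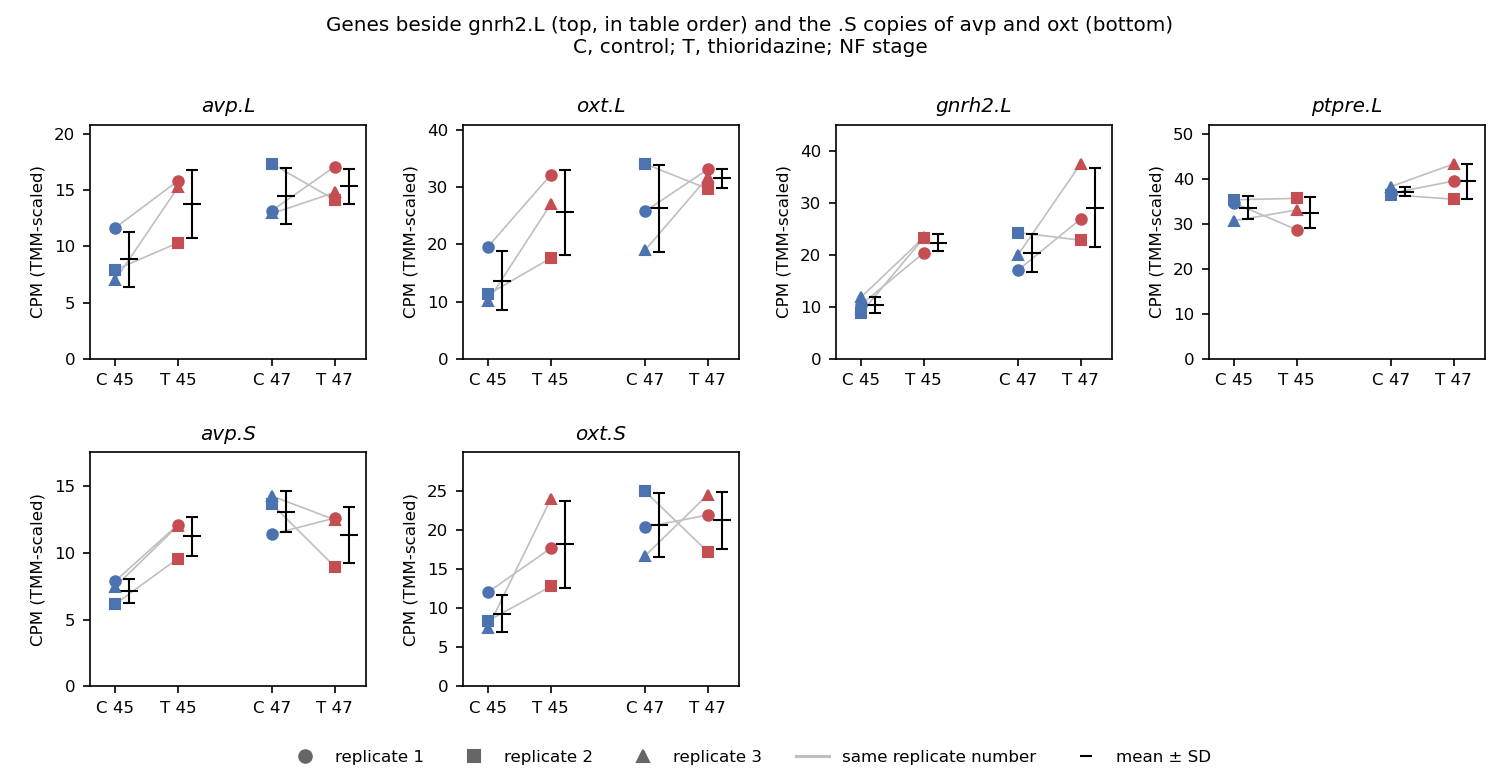
TMM-scaled CPM (y axes, each from 0) of gnrh2.L and 3 genes listed beside it (top, in table order) and of the .S copies of avp and oxt (bottom), by group; symbols, colours, lines and bars are as in the plot of gnrh2.L. At NF 45 the exposed libraries of oxt.S and avp.S lie above all controls, while for ptpre.L the groups overlap, at 30.7 to 35.3 and 28.7 to 35.6 CPM.

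Beside gnrh2.L, 51 other neuropeptide precursor genes were tested, of which 37 had a higher and 14 a lower mean level in NF 45 exposed brains, with 0 called. The median of their log2 fold changes was 0.12, and 49.1% of all genes were higher. For 5 of them (9.8%, against 2.44% of all genes) every exposed library lay above the controls, and for 1 (1.96%, against 1.56%) below. The fold changes nearest to that of gnrh2.L were those of oxt.S, oxt.L and hcrt.L, the gene of the orexin arousal peptides. For hcrt.L the controls gave 1.23, 0.871 and 1.08 CPM and the exposed brains 1.89, 1.23 and 2.78 CPM, a log2 fold change of 0.89 ± 0.342. At the low end, ucn3.S, of the corticotropin-releasing hormone family, gave 1.88, 0.373 and 0.923 CPM against 0.53, 0.446 and 0.413 CPM, with -1.18 ± 0.511.

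The smallest unadjusted p of the neuropeptide list belonged to pdyn.S, for prodynorphin, the precursor of peptides that act on kappa opioid receptors. Its NF 45 controls gave 10.1, 9.08 and 9.31 CPM and its exposed brains 13.2, 13.8 and 15.9 CPM. These groups were apart, as for 2.44% of all genes in this direction. The log2 fold change was 0.59 ± 0.126, with an unadjusted p of 0.000531 and an adjusted p of 1 in edgeR, and of 0.115 in DESeq2. With same-numbered libraries as pairs in edgeR, the adjusted p of pdyn.S was 0.32. The copy pdyn.L had 0.66 ± 0.242. At NF 47 the mean control level of pdyn.S was 14.8 ± 0.694 CPM and the mean exposed level 15.1 ± 0.878 CPM (SD, n = 3).

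At NF 47, 24 of the 51 neuropeptide genes were higher and 27 lower, 0 were called, and the median was -0.0094. Groups were apart for 4 genes upward (7.84%, against 3.8% of all genes) and for 4 downward (7.84%, against 3.55%). The NF 47 fold change of hcrt.L, 0.57, was above that of gnrh2.L, 0.51, and those of the other 50 genes were below it. The cholecystokinin genes had -0.83 ± 0.302 for cck.S and -0.44 ± 0.182 for cck.L.

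**Figure D4:**
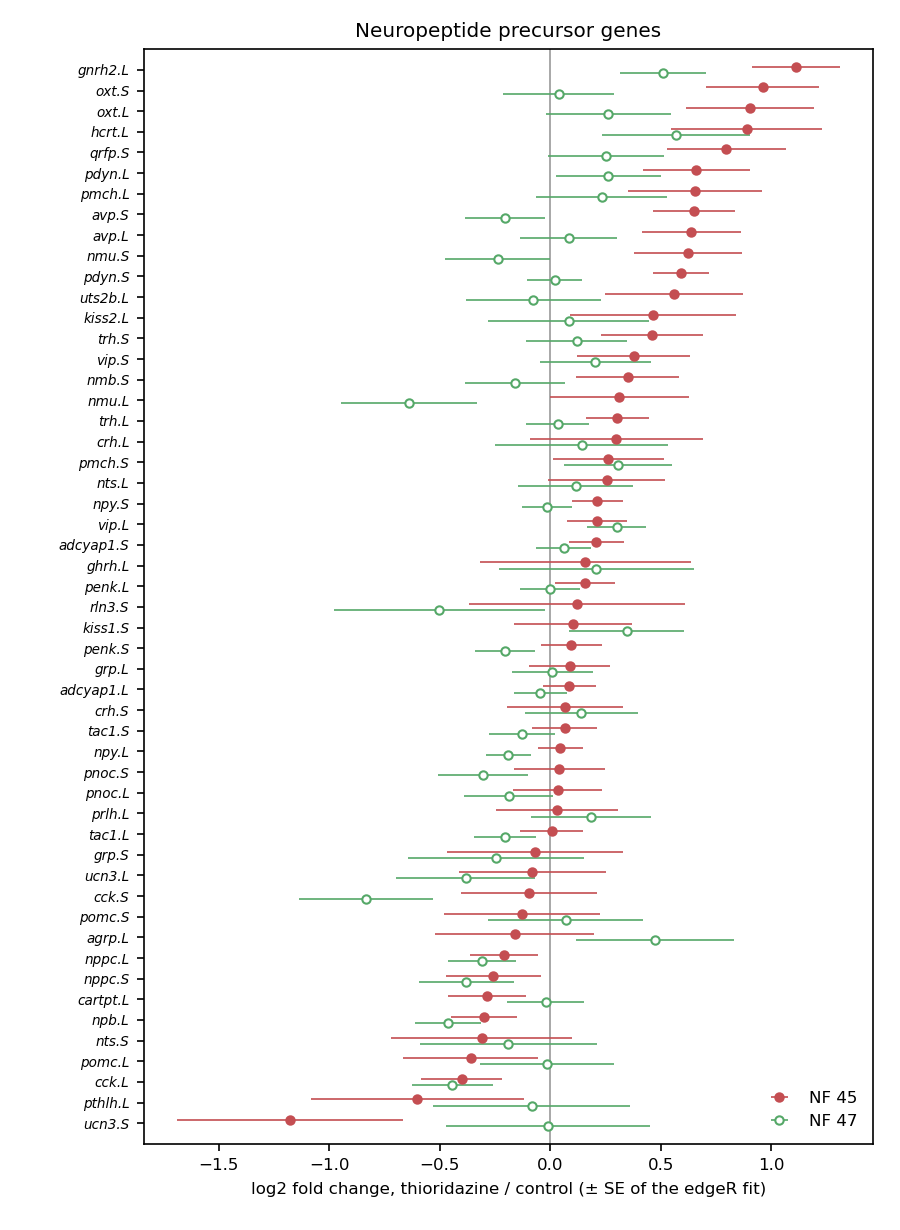
Log2 fold change of thioridazine over control (x axis) for gnrh2.L and 51 other neuropeptide precursor genes, with the SE of the edgeR fit; filled points are NF 45 and open points NF 47, and genes are ordered by the NF 45 value. The topmost gene is gnrh2.L at 1.11, followed by oxt.S and oxt.L; at NF 47 oxt.S lies at 0.04.

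With age, neuropeptide genes as a group had higher levels, gnrh2.L among them. In controls 50 of the 51 had a higher mean at NF 47, with a median log2 difference of 0.65, against 0.98 for gnrh2.L and -0.03 for all genes. Groups were apart with NF 47 higher for 29 (56.9%, against 9.87% of all genes) and with NF 47 lower for 0 (against 8.59%). In all 12 libraries edgeR called 0 genes (0%) between the control stages, with 2964 at an unadjusted p under 0.05, and with same-numbered libraries blocked across stages it called 2 (0.00753%). The lowest adjusted p of a neuropeptide gene in the fit without a block was 0.118. With any 1 library left out it also called 0. Without both NF 45 libraries numbered 2, edgeR called 818 genes (3.05%, with 1.73% higher), among them 15 of 52 neuropeptide genes, all of which rose. DESeq2 on all 12 libraries called 431 genes (1.62%, with 1.31% higher), and 17 of 51 neuropeptide genes rose. In the edgeR fit without those libraries oxt.S rose by 1.11 ± 0.25 (SE, adjusted p of 0.04). In the same fit nmb.S, for neuromedin B, rose by 1.08 ± 0.206 and penk.L, for proenkephalin, by 0.92 ± 0.143.

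Other gene groups were compared between the control stages as well. Of 31 pan-neuronal genes 27 had a higher mean at NF 47, with a median of 0.25, and for 10 (32.3%, against 9.87% of all genes) the groups were apart with NF 47 higher. Without both NF 45 libraries numbered 2, 9 pan-neuronal genes rose (29%, against 1.73% of all genes called higher), and in DESeq2 7 (22.6%, against 1.31%). NF 45 control replicate 2 had the highest pan-neuronal sum of its group, 8826 CPM against 7261 and 6508 CPM. Leaving it out lowers the NF 45 level, and the median in that fit was 0.46, so nothing is read from those 9 calls. Means were lower at NF 47 for 23 of 30 muscle genes (median -1.08), 19 of 22 retina and pigment genes (median -1.09) and 11 of 13 liver, pancreas and gut genes (median -1.47). Without both NF 45 libraries numbered 2 the muscle median was -0.56. Liver, pancreas and gut genes summed to 621, 603 and 1766 CPM in NF 45 control replicates 1, 2 and 3, against 656 to 857 CPM in NF 47 controls. Retina and pigment genes summed to 293, 237 and 847 CPM, against 191 to 328 CPM. In both lists only replicate 3 lay above all NF 47 controls. Skin genes were lower for 21 of 28 (median -0.27). In the fit without both NF 45 libraries numbered 2, 6 of 28 skin genes were called lower at NF 47 and 2 higher. Of all genes 1.32% were called lower and 1.73% higher. The libraries left out had the lowest skin sums at NF 45. Leaving them out raises the NF 45 skin level, so nothing is read from these skin calls. The part of these groups in the stage differences of gnrh2.L, neuropeptide and peptide processing genes was not tested beyond the values per pan-neuronal level.

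In exposed brains 48 of the 51 were higher at NF 47, with a median of 0.40, against 0.38 for gnrh2.L. For 26 (51%, against 7.35% of all genes) the groups were apart with NF 47 higher, and for 0 (against 5.98%) with NF 47 lower. Here edgeR called 0 genes (0%) on all 12 libraries, with 2561 at an unadjusted p under 0.05, and 3 (0.0112%) without both NF 45 libraries numbered 2, none of them in a list. With same-numbered libraries of all groups, controls included, blocked across stages it called 1 (0.00376%), also in no list. Pan-neuronal genes were higher for 26 of 31, with a median of 0.20. DESeq2 called 281 (1.06%, with 0.606% higher), and 8 neuropeptide genes rose. Among these were cartpt.L, for the CART peptides, by 0.96 ± 0.2 (SE), cck.L by 0.74 ± 0.203 and vip.L, for vasoactive intestinal peptide, by 0.63 ± 0.149.

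The GnRH-II precursor, like others, is cut by proprotein convertases in secretory granules. Its first residue is then cyclized by glutaminyl cyclase, encoded by qpct, and its last amidated by the enzyme encoded by pam. Of 31 tested genes of peptide processing and granules, 17 were higher in NF 45 exposed brains, 0 were called, and the median was 0.01. Every exposed library lay above the controls for 3 (9.68%, against 2.44% of all genes) and below for 0 (against 1.56%). At NF 47, 8 were higher, 0 were called, and the median was -0.07. Groups were then apart for 0 upward (against 3.8%) and for 1 downward (3.23%, against 3.55%). The smallest unadjusted p at NF 45 belonged to the secretogranin genes scg2.L and scg2.S, with 0.31 ± 0.118 and 0.34 ± 0.149, and to qpct.L, with 0.25 ± 0.113. The NF 45 controls gave 39.2, 35.5 and 39 CPM of qpct.L and the exposed brains 50.6, 40.5 and 43.8 CPM. These groups were apart, as for 2.44% of all genes in this direction.

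With age in controls 26 of the 31 processing genes had a higher mean, with a median of 0.36. Without both NF 45 libraries numbered 2, edgeR called 11 (35.5%, against 3.05% of all genes, with 1.73% higher), all of which rose. Among the 11, qpct.L rose by 0.68 ± 0.121 (SE), the chromogranin gene chgb.L by 0.71 ± 0.138 and the convertase gene pcsk2.L by 0.60 ± 0.122. NF 45 control replicate 2 had the highest processing sum of its group, 3741 CPM against 3487 and 3041 CPM. Leaving it out lowers the NF 45 level, and the median in that fit was 0.53. Nothing is therefore read from the number of these calls or from those sizes. DESeq2 on all 12 libraries called 12 (38.7%, against 1.62% of all genes, with 1.31% higher), all higher. In DESeq2 pam.L rose by 0.50 ± 0.125 (adjusted p of 0.0072). The DESeq2 values were 0.69 ± 0.124 for qpct.L, 0.55 ± 0.149 for chgb.L and 0.53 ± 0.105 for pcsk2.L.

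Genes of kisspeptin, tachykinin, RFamide and dynorphin signalling, which regulate GnRH neurons in mammals, were tested for 13 members. At NF 45, 10 were higher, 0 were called, and the median was 0.11. Every exposed library lay above the controls for 3 (23.1%, against 2.44% of all genes) and below for 0 (against 1.56%). At NF 47, 8 were higher, 0 were called, and the median was 0.06. Groups were then apart for 1 upward (7.69%, against 3.8%) and for 0 downward (against 3.55%). Besides both pdyn genes, the smallest unadjusted p at NF 45 belonged to the kappa opioid receptor gene oprk1.S, with control levels of 2.31, 1.99 and 1.92 CPM and exposed levels of 3.33, 3.23 and 2.6 CPM. It was higher in 6 of 6 pairs, as were 3.1% of all genes. Its log2 fold changes were 0.55 ± 0.292 and 0.56 ± 0.287 at NF 45 and NF 47. The kisspeptin genes had 0.10 ± 0.266 for kiss1.S and 0.47 ± 0.376 for kiss2.L at NF 45. With age in controls the tachykinin genes tac1.L and tac1.S rose in DESeq2, by 0.56 ± 0.158 and 0.60 ± 0.166.

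Genes known in mammals for the birth, migration and wiring of GnRH neurons, mainly those of GnRH-I, were close to even. Of 43 tested members 22 were higher at NF 45 and 22 at NF 47, 0 were called at either stage, and the medians were 4.5e-05 and 0.0049. The smallest unadjusted p at NF 45 belonged to chd7.S, a chromatin remodeller gene, with 0.15 ± 0.134, plxna1.S, a semaphorin receptor gene, with -0.23 ± 0.214, and sox10.L, a neural crest factor gene, with 0.24 ± 0.219. Without exposed replicate 1 sox10.L had -0.038.

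Midbrain genes were followed because GnRH-II neurons lie there. Of 57 tested members 33 were higher in NF 45 exposed brains, 0 were called, and the median was 0.07. At NF 47, 35 were higher, 0 were called, and the median was 0.05. Exposed libraries were above all controls for 9 members at NF 45 (15.8%, against 2.44% of all genes) and for 6 at NF 47 (10.5%, against 3.8%). The dopamine neuron and roof plate gene lmx1a.L gave 11.6, 11.4 and 10.3 CPM in NF 45 controls and 14.3, 16.3 and 15.8 CPM in exposed brains. At NF 47 it gave 10.2, 9.96 and 12.3 CPM and 15.3, 13.1 and 16.6 CPM. Groups were apart at both stages, with log2 fold changes of 0.48 ± 0.142 and 0.47 ± 0.142 (adjusted p of 1 each in edgeR). The homeobox gene arx.L had 0.37 ± 0.122 at NF 45 and -0.01 ± 0.122 at NF 47, and the dopamine neuron gene pitx3.L 0.61 ± 0.207 and -0.21 ± 0.207.

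Of 31 pan-neuronal genes 21 were higher at NF 45 and 8 at NF 47, 0 were called at either stage, and the medians were 0.06 and -0.08. The smallest unadjusted p at NF 45 belonged to uchl1.S, a neuronal ubiquitin hydrolase gene, with 0.36 ± 0.191, the syntaxin gene stx1a.L, with -0.35 ± 0.187, and the growth cone gene gap43.L, with 0.17 ± 0.127.

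Genes that varied over the 12 libraries most like gnrh2.L were sought among 19062 genes with a descriptive symbol and a mean of at least 1 CPM. The highest Pearson correlation of log2 CPM was that of psap.S, for the lysosomal precursor prosaposin, at 0.882. It was followed by cyba.L, for a subunit of the phagocyte oxidase, at 0.881, and cish.S, for an inhibitor of cytokine signalling, at 0.877. Then came selenow2.S, for a selenoprotein, at 0.872, and lhx8.L, for a homeobox factor of forebrain neurons, at 0.868. The median over all compared genes was 0.0178. These libraries share groups, stages and pairs, so the correlations describe likeness and were not tested.

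Within the 6 libraries of a stage the correlation of psap.S was 0.819 at NF 45 and 0.821 at NF 47, and that of lhx8.L 0.903 and 0.584. After removal of group means it was 0.365 for psap.S, 0.191 for lhx8.L and 0.807 for selenow2.S. In cish.S the NF 45 controls gave 4.41, 6.04 and 5.31 CPM and the exposed brains 8.71, 6.85 and 9.45 CPM. At NF 47 they gave 6.8, 7.38 and 8.08 CPM and 10.1, 9.32 and 14.7 CPM. Groups of cish.S were apart at NF 45, as for 2.44% of all genes in this direction, and at NF 47, as for 3.8%. Its highest library was NF 47 exposed replicate 3, as for gnrh2.L. Since cish.S was picked for its correlation with gnrh2.L, nothing is read from these likenesses. For lhx8.L the log2 fold change was 0.67 ± 0.161 at NF 45 and 0.28 ± 0.159 at NF 47.

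The lowest correlations were those of fhip2a.S, for a protein of endosome transport, at -0.897, trarg1.S, for a regulator of glucose transporter traffic, at -0.86, and znf687.L, for a zinc finger protein, at -0.859. In fhip2a.S the NF 45 controls gave 17.5, 19.1 and 17.3 CPM and the exposed brains 14.1, 16.7 and 12.5 CPM, and exposed replicate 3 at NF 47 was lowest of all, at 10.9 CPM. None of these 8 genes was called between exposed and control brains in edgeR or DESeq2.

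**Figure D5:**
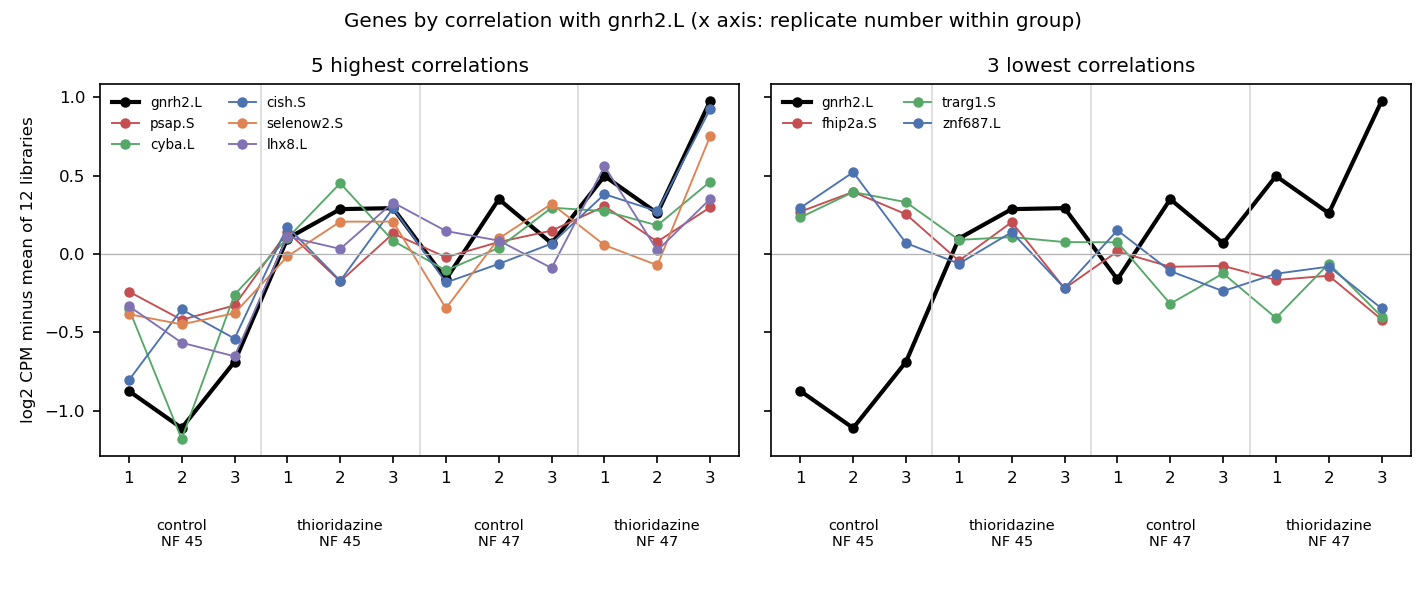
Log2 CPM minus its mean over 12 libraries (y axis) for gnrh2.L (black, in both panels) and the 5 genes with the highest (left) and 3 with the lowest (right) Pearson correlation with it; the x axis gives the replicate number within each group. The 3 lowest values of gnrh2.L are those of the NF 45 controls and its highest is NF 47 thioridazine replicate 3, where cish.S peaks too.

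Of the genes listed for other tissues, 0 were called between exposed and control brains at either stage. At NF 45 leukocyte genes had higher means in exposed brains for 16 of 16 tested members, with a median of 0.61, and for 6 of them (37.5%, against 2.44% of all genes) every exposed library lay above the controls. Their summed control level was 61.7 to 70.8 CPM, against 57.9 to 119 CPM after exposure. Retina and pigment genes were higher for 15 of 22 (median 0.19), apart for 5 (22.7%), with sums of 237 to 847 and 388 to 932 CPM. Muscle genes were higher for 24 of 30 (median 0.16), with 1392 to 4148 and 1499 to 5691 CPM. Replicate 2 was the highest in each group, and without both NF 45 libraries numbered 2 the muscle median was -0.20. Blood genes were higher for 11 of 13 and skin genes for 17 of 28, with blood sums of 912 to 2147 and 1196 to 1906 CPM. Liver, pancreas and gut genes were higher for 2 of 13 (median -1.40). The insulin gene ins.S had 88 reads in NF 45 control replicate 3 and 0 in the other libraries. At NF 47 retina and pigment genes were higher for 21 of 22 (median 0.54), with sums of 191 to 328 CPM in controls and 260.4 to 514 CPM after exposure. Muscle genes were higher there for 24 of 30 (median 0.65), with sums of 1010 to 1869 and 1545 to 2284 CPM. Leukocyte genes were higher for 14 of 16 (median 0.16), with sums of 52.6 to 87.8 and 52.7 to 101 CPM. The part of these tissues in the gnrh2.L differences at NF 45 and NF 47 was not tested.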

How the data were processed

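Whole-brain RNA was read as 100 bp single ends from Illumina TruSeq v2 libraries, per the labels' protocols. The authors deposited raw read counts per NCBI Gene number, with no normalization, in 1 table per library. Trimmomatic, HISAT2, HTSeq and DESeq2 are listed by the submitters' processing notes without roles. Their versions, the genome build and the strand setting are not given in the sources used here, so reads of gene copies may be divided and reads of overlapping genes mixed. Symbols came from the RefSeq table of assembly Xenopus_laevis v10.1 (33597 of 37018 gene numbers matched), used for names and gene order.

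All 12 libraries entered a single robust quasi-likelihood fit of 4 groups in edgeR 4.0.16 (R 4.3.3), with TMM scaling, filterByExpr and no block. Benjamini-Hochberg adjustment covered all 26570 genes, with calls at 0.05. The SE is the size of the log2 fold change over the square root of F. Log2 CPM used a prior count of 2. Alternatives included DESeq2 1.42.0, RLE scaling, no filter, replicate blocks, and leaving out libraries. The edgeR code was run on simulated data with no differences between pairs. That run cannot show how the fit without a block behaves on paired libraries. Intervals on reads are 95% exact Poisson and cover counting error only.

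Replicate numbers 1 to 3 occur in all groups. Deviations from group means of same-numbered control and exposed libraries correlated at 0.575, 0.845 and 0.449 at NF 45 and at 0.291, 0.318 and 0.540 at NF 47, so numbers were taken to pair libraries within a stage. Same-numbered exposed libraries of the 2 stages correlated at 0.186, 0.236 and 0.429 and were likewise taken as pairs. This is uncertain, since control libraries of the 2 stages gave -0.0556, -0.128 and 0.226, and the last lies within the exposed range. The block across stages was shared by all groups, controls included, so no fit paired the exposed libraries alone. The labels call the replicates biological without naming clutches, so p-values measure the spread between these samples. In the main fit, which has no block, the SE and p-values for exposure and for the exposed stages also include differences between pairs.

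The gene, its lists and the alternatives were chosen with earlier results of these data known. Named genes are gnrh2.L, all genes whose symbol starts with gnrh, the 2 genes on either side, the 5 highest and 3 lowest correlations, and in each neural or endocrine list the 3 smallest unadjusted p at NF 45. Other genes were named after their values were seen. Both copies of a symbol were counted, and 36 of 48 symbols of the neuropeptide list matched. Of the kisspeptin, tachykinin, RFamide and dynorphin list 9 of 16 symbols matched.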

Additional observations from a re-analysis of the deposited data

Results flagged for a closer look

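Named genes were flagged if all pairs of a stage went the same way and all pairs of the other stage the opposite way. Those with a called difference between stages were flagged too. How many of all genes have such a pattern was not counted, so nothing is read from the unadjusted p of a flagged gene. By this rule the midbrain dopamine neuron gene pitx3.L was flagged. It lay higher in the exposed library of every NF 45 pair and lower in that of every NF 47 pair. Its levels at NF 45 were 2.89, 2.92 and 3 CPM in control and 4.32, 5.24 and 3.9 CPM in thioridazine libraries, and at NF 47 3.46, 4.22 and 3.86 CPM and 3.01, 3.5 and 3.46 CPM. The NF 47 log2 fold change minus the NF 45 one was -0.82 ± 0.293 (SE), with an unadjusted p of 0.0162 and an adjusted p of 1 in edgeR's quasi-likelihood test, so the difference between stages was not called.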

How the results depend on the processing

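The log2 fold change of gnrh2.L kept its sign in each contrast under every alternative run. Leaving out 1 library gave 0.99 to 1.22 at NF 45, 0.28 to 0.67 at NF 47, -0.83 to -0.44 for their difference, 0.86 to 1.10 for the control stages and 0.18 to 0.56 for the exposed stages. Relative to pan-neuronal genes, chosen after seeing the data, the control stages differed by 0.66. With same-numbered libraries paired (the replicate block), the NF 45 and NF 47 values were 1.12 and 0.50. Against 0 calls in each contrast, edgeR called 6 genes at NF 45 and 1 at NF 47 with the block within stage, and 2 and 1 for control and exposed stages with a block across stages. Same-numbered control libraries of the 2 stages correlated in their deviations at -0.0556, -0.128 and 0.226, so the numbers were not read as pairs there. DESeq2 called 9, 1, 431 and 281. Without both NF 45 libraries numbered 2 the stage counts were 818 and 3. Leaving out 1 library gave 0 for the control stages and 0 to 1 for the exposed stages. The cause was not tested. With gnrh2.L left out, the block changed no call of a listed gene, and it turned gnrhr.L at NF 45 to -0.042.

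Other signs turned when 1 library was left out. At NF 45 the ranges were -0.41 to 0.23 for gnrhr.L, -0.11 to 0.034 for ptpre.L, -1.25 to 0.32 for LOC108697133 and -0.038 to 0.44 for sox10.L. At NF 47 they were -0.27 to 0.32 for gnrhr1-A, -0.27 to 0.081 for gnrhr.L, -0.0022 to 0.23 for avp.L, -0.055 to 0.41 for selenow2.S, -0.011 to 0.065 for pdyn.S, -0.25 to 0.019 for plxna1.S, -0.096 to 0.23 for sox10.L, -0.073 to 0.030 for arx.L, -0.093 to 0.20 for oxt.S, -0.068 to 0.20 for scg2.S, -0.22 to 0.021 for uchl1.S and -0.067 to 0.074 for gap43.L. Of the values of named genes under all alternatives, 656 at NF 45 and 643 at NF 47 kept sign and call, and 7 and 20 changed sign. The main fit called none of these genes and most alternatives left out only 1 library, so nothing is read from these counts.

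The choice of the most alike genes depends on the measure. By Spearman correlation cish.S had place 5, lhx8.L 15, selenow2.S 30.5, psap.S 47 and cyba.L 55.5. Without both NF 45 libraries numbered 2 the places were 1 for cish.S, 4 for psap.S, 5 for cyba.L, 33 for selenow2.S and 62 for lhx8.L.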
